A study of Mus musculus with 6 samples.

Results

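The genes of respiratory complex I were compared between mouse cortices with and without deletion of Rheb, in RNA from an anti-HA pull-down meant for tagged ribosomes. Members were taken by name: 52 genes of the 13192 in the longer deposited gene table have a symbol that starts with Nduf or mt-Nd. They comprised 36 nuclear-encoded subunits, 7 assembly factors (Ndufaf genes), 7 mitochondrially encoded subunits (mt-Nd genes), and the pair Ndufa4 and Ndufa4l2, described apart because Ndufa4 is now counted as a subunit of complex IV. All 52 had a value in both groups. Ndufb1-ps has no row and was not analysed here.

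The study asked how depleting Rheb, a small GTPase that activates the growth kinase complex mTORC1, alters gene expression of neurons. There were 3 Control and 3 Rheb cKO libraries, the latter with the genotype label Rheb knockdown. Both groups carried the floxed alleles Rheb floxp/floxp and the knock-in Ribo-HA k/+, by its name an allele for an HA tag on ribosomes. The Rheb cKO group had Syn-Cre in addition, the usual name of a transgene that expresses Cre recombinase from a synapsin promoter, active in neurons. Cortices were taken at postnatal day 25, and RNA was purified from what an anti-HA antibody pulled out of the lysate. The titles of the Control libraries name no Cre. The labels do not say what recombination, if any, the tag needs, nor whether the libraries of a group came from separate animals, so the authors' p-values and q-values may measure only the spread between these libraries.

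Complex I, NADH:ubiquinone oxidoreductase, is the entry point of electrons from NADH into the respiratory chain and one of its proton pumps. It is L-shaped: a peripheral arm in the matrix oxidises NADH and passes electrons along iron-sulfur clusters to ubiquinone, and a membrane arm pumps protons. The core of the membrane arm is made by mitochondrial ribosomes from mitochondrial genes, while all other subunits are made in the cytosol and imported, and assembly factors join the modules without staying in the finished enzyme. Neurons depend strongly on this chain for ATP, and loss of single subunits such as Ndufs4 causes encephalopathy in mice.

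The values are FPKM (fragments relative to gene model length and to all mapped fragments). Each gene has 1 value in Control and 1 in Rheb cKO, for which the authors had pooled the libraries. No spread between libraries can be given, and the depth per library is unknown here. A gene was called lower or higher where the authors' Cuffdiff q was under 0.05. By this rule 8.72% of all genes were called, 4.58% lower and 4.14% higher in Rheb cKO. At a q under 0.01, 4.71% were called in either direction, and at a q under 0.10, 6.15% were lower and 6.22% higher. The median log2 fold change (Rheb cKO over Control) of all genes with a finite fold was 0.03 in the authors' deposited table. Rheb itself went from 22.7 FPKM in Control to 9.20 in Rheb cKO (log2 fold change -1.30, Cuffdiff q = 0.00161 in the authors' deposited table). The label "Neuron" was checked against marker lists. None of 12 neuron markers was called, with a summed FPKM of 4547 in Control and 4890 in Rheb cKO; 3 were higher at an unadjusted p under 0.05. Markers of other cells were present too, and 15 of 15 oligodendrocyte markers were called lower, with a summed FPKM of 3992 in Control and 1364 in Rheb cKO. Of 10 astrocyte markers 2 were lower and 1 higher (summed FPKM 2020 and 1658), of 5 listed endothelial and mural markers 3 were lower (71.9 and 38.5), and of 7 listed microglia markers none was called (21.7 and 25.1), with 1 higher at an unadjusted p under 0.05. None of these lists summed to 0 in either group. Their part in the values of the complex I genes was not tested. In such pull-downs from whole cortex, fewer cells of a type, less RNA per cell and a difference in what the pull-down carried along cannot be told apart.

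Across complex I, 4 of the 52 genes were called lower in Rheb cKO and none higher, that is 7.69% lower against the 4.58% of all genes called lower. Among the 260 protein-coding genes with transcripts under 1000 bases and a mean FPKM of 100 or more, members included, 8.08% were called lower. These shares are not like for like. Many, not all, of the 52 genes belong to this class of short, abundant transcripts, and 238 of the 260 remain once members are left out. The called Ndufs5, Ndufb7 and mt-Nd3 lie in the class and so count in its 8.08%. The share called lower among the 238 was not computed, so no excess over the class, nor the lack of one, is shown. The called members of complex I are named next. These 4 were the subunits Ndufs5 and Ndufb7, the assembly factor Ndufaf2 and the mitochondrially encoded mt-Nd3. Among the 36 nuclear subunits 2 were called lower (5.56%), a share near that of all genes, and none higher. At an unadjusted p under 0.05, where 9.72% of all genes were lower and 11.4% higher, 6 subunits were lower and none higher. What the subunits shared was a small displacement in 1 direction: 31 of 36 had a fold change below 0 (86.1%), where 45.4% of all genes with a finite fold did. Their median log2 fold change was -0.11, computed from the authors' deposited table. Both values depended on a trend of fold change with transcript length and GC: once it was taken out, 23 of 36 had a fold below 0 (63.9%, where 45.5% of all protein-coding genes did) and the median was -0.033. As deposited, their summed FPKM went from 12724 in Control to 11409 in Rheb cKO, 89.7% of Control. The subunits above 0 were Ndufa9, Ndufa10, Ndufs3, Ndufv1 and Ndufv2.

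The order of the genes by level hardly differed between the groups. Subunit FPKM ran from 65.9 (Ndufs4) to 1057 (Ndufs5) in Control, with a median of 316.1, and from 62.6 (Ndufs4) to 786 (Ndufs5) in Rheb cKO, with a median of 291.5. Across the 36 genes, log2 FPKM in Control and in Rheb cKO correlated with Pearson r = 0.990 and Spearman rho = 0.983. These are genes of the same libraries, not independent replicates. The correlation over all genes was not computed, so a high value here is not shown to be particular to complex I. Assembly factors had a lower median, 15.2 FPKM in Control and 14.6 in Rheb cKO, but their range overlapped that of the subunits: Ndufaf3, with 78.9 FPKM in Control, stood above Ndufs4. The mitochondrially encoded subunits had medians of 37.8 and 45.7, and ran in Control from 6.71 (mt-Nd5), below every assembly factor, to 169.7 (mt-Nd3). The plot of FPKM by gene shows these levels, each per length of the gene model.

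**Figure D1:**
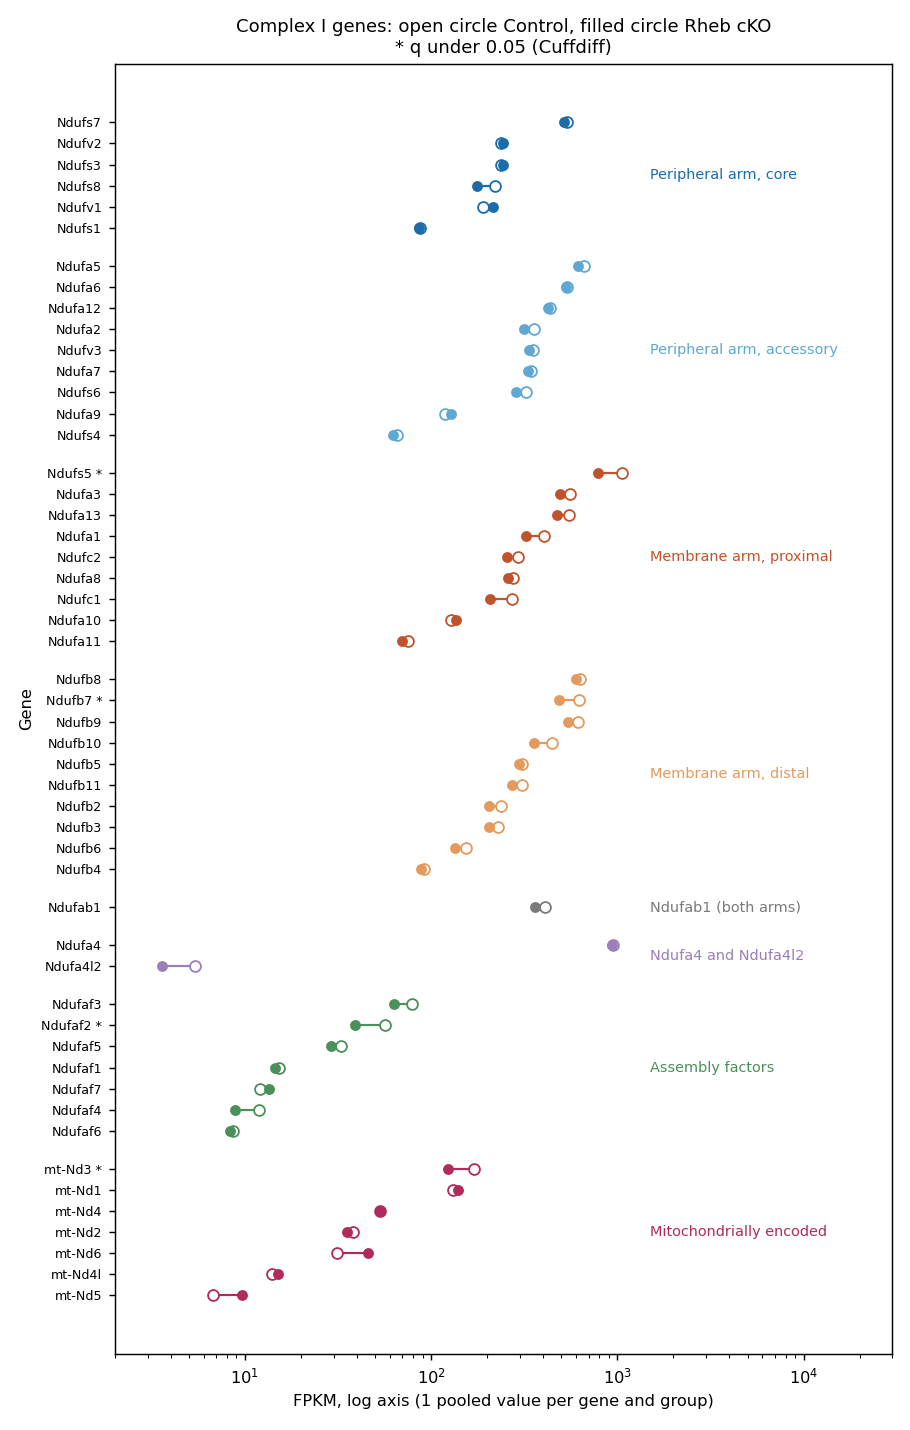
FPKM (log axis) of the complex I genes in Control (open circles) and Rheb cKO (filled circles), 1 value pooled by the authors per gene and group, ordered within each role by level; an asterisk marks a Cuffdiff q under 0.05. Most subunit pairs lie close together with the filled circle slightly to the left, and Ndufs5, Ndufb7, Ndufaf2 and mt-Nd3 are the called genes.

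The peripheral arm held no called gene. None of its 16 subunits passed the Cuffdiff threshold in either direction, where 8.72% of all genes did. With so few genes, that share gives few calls to begin with. At an unadjusted p under 0.05, 1, Ndufs8, was lower, where 9.72% of all genes were. Its 7 core subunits, some of which carry the flavin and the iron-sulfur clusters, had a median log2 fold change of -0.01, with 4 below 0 and 3 above. Ndufv1, which binds the flavin that takes electrons from NADH, had 189.2 FPKM in Control and 215.1 in Rheb cKO, the highest fold change of any nuclear member (log2 0.18, Cuffdiff q = 0.400 in the authors' deposited table). Its partner Ndufv2 had 236.8 and 242.0 FPKM. Ndufs7, at the ubiquinone site, had 534.4 and 513.8 FPKM. Ndufs8, which holds a pair of iron-sulfur clusters near that site, went from 219.5 to 177.2 FPKM (log2 -0.31, Cuffdiff q = 0.0962 in the authors' deposited table) and was not called.

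The 9 accessory subunits of the peripheral arm had a median log2 fold change of -0.07, with 8 below 0. Ndufa5, among the 5 most abundant nuclear members, had 662.9 FPKM in Control and 614.7 in Rheb cKO (log2 -0.11, Cuffdiff q = 0.720 in the authors' deposited table). Ndufa9, a nucleotide-binding subunit at the junction of the arms, had 118.5 and 127.9 FPKM (log2 0.11, Cuffdiff q = 0.691 in the authors' deposited table). Ndufs4, the subunit deleted in a widely used mouse model of Leigh syndrome, had 65.9 and 62.6 FPKM. Ndufa12, the structural counterpart of the assembly factor Ndufaf2, had 433.6 and 424.6 FPKM.

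The accessory subunits of the membrane arm held both called subunits. Of the 19 nuclear-encoded membrane arm subunits listed, 18 had a fold change below 0 (94.7%, where 45.4% of all genes with a finite fold did), all but Ndufa10. Once the trend on length and GC was taken out, 14 did (73.7%, where 45.5% of all protein-coding genes did). The median log2 fold change as deposited was -0.18. Called lower were 2 (10.5%, where 4.58% of all genes and 8.08% of short, abundant coding transcripts, members included, were). At an unadjusted p under 0.05, 5 were lower (where 9.72% of all genes were). Their summed FPKM in Rheb cKO was 85.4% of Control, where that of the 16 peripheral arm subunits was 96.0%. The difference between the arms was not tested, since the genes are not replicates, and the membrane arm subunits also have shorter transcripts (median 732 against 1026 bases, taking for each gene the transcript with the longest coding sequence).

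Ndufs5, a small intermembrane-space subunit of the proximal membrane arm, was the most abundant subunit in Control. It went from 1057 FPKM in Control to 786 in Rheb cKO, 74.4% of Control (log2 -0.43, Cuffdiff q = 0.00785 in the authors' deposited table). The gene lies on the minus strand at chr4:123712710-123718202 (GRCm38, the build called mm10) and overlaps no other annotated gene. Ndufb7, an intermembrane-space subunit of the distal membrane arm, went from 623 to 486 FPKM, 78.0% of Control (log2 -0.36, Cuffdiff q = 0.0381 in the authors' deposited table). It lies on the plus strand at chr8:83566671-83571626 and likewise overlaps no other annotated gene. Ndufa8, another intermembrane-space subunit of this arm, had 274.9 and 257.5 FPKM and was not called.

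Other genes of the arm had a q between 0.05 and 0.10 and were not called. Ndufc1 went from 271.8 to 206.0 FPKM (log2 -0.40, Cuffdiff q = 0.0999 in the authors' deposited table), Ndufa1 from 402.0 to 321.6 (q = 0.0885) and Ndufb10 from 445.2 to 356.1 (q = 0.0769). Ndufb8 had 633.0 FPKM in Control and 601.8 in Rheb cKO (log2 -0.07, Cuffdiff q = 0.814 in the authors' deposited table). Ndufb9, an LYR-motif protein that docks the acyl carrier protein, had 611.4 and 545.9 FPKM (log2 -0.16, Cuffdiff q = 0.465 in the authors' deposited table). Ndufab1, that acyl carrier protein, sits in both arms and also serves mitochondrial fatty acid synthesis. It had 411.0 and 359.8 FPKM and was not called.

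**Figure D2:**
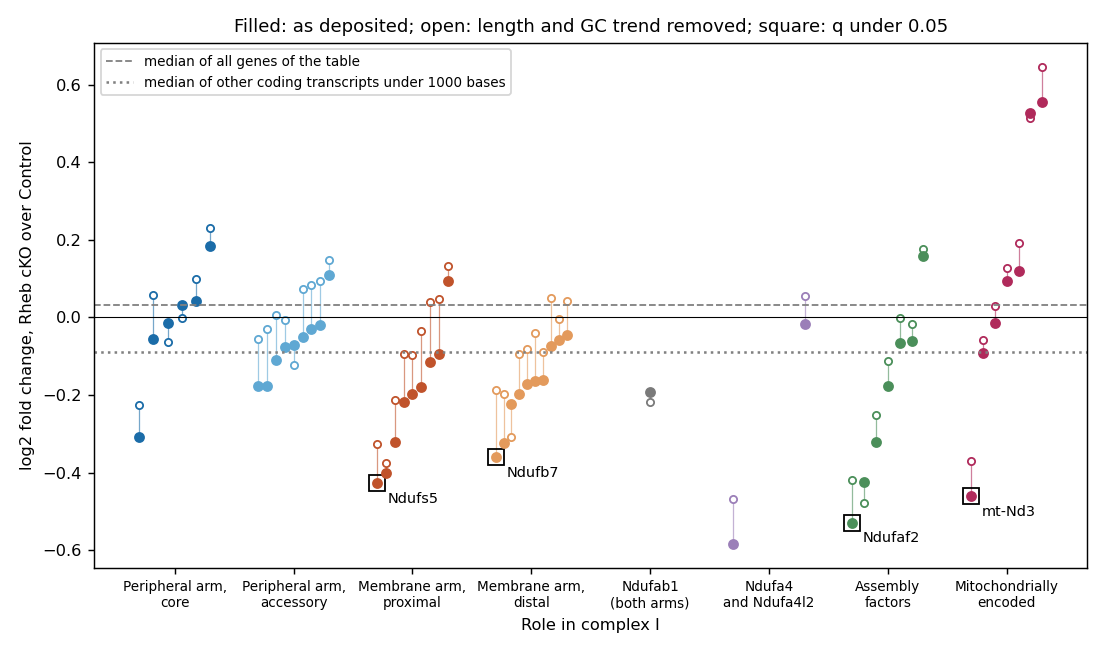
Log2 fold change (Rheb cKO over Control) of complex I genes by role, as deposited (filled) and after removal of the trend on transcript length and GC (open); squares mark a Cuffdiff q under 0.05, the dashed line is the median of all genes and the dotted line that of other coding transcripts under 1000 bases. The filled points of the membrane arm lie below 0 except Ndufa10, and most open points lie nearer to 0.

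Short transcripts outside complex I were displaced in the same direction. Fold changes in the whole table followed transcript length: over 12364 protein-coding genes, log2 length and log2 fold change had Spearman rho = 0.182, and the median fold rose from -0.10 among the shortest of 20 length bins to 0.16 among the longest. Complex I subunits are short and abundant. Of the 21 with a transcript under 1000 bases, all 21 had a fold below 0, with a median of -0.16, and 2 of the 21 were called lower (9.52%); of the 15 longer ones 10 did, with a median of -0.06. Among all 822 protein-coding genes with such short transcripts, members included, 64.1% had a fold below 0, and 6.69% were called lower and 2.19% higher. Among the 794 other protein-coding transcripts under 1000 bases, 63.2% had a fold below 0 with a median of -0.09, and among the 238 of these with a mean FPKM of 100 or more, 66.0% with a median of -0.07. Once the trend on length and GC was taken out, the median log2 fold change of the 36 subunits was -0.03 in place of -0.11. The values of both arms moved with it: the peripheral arm's median became 0.00278 and the membrane arm's -0.09. Ndufs5 (-0.32), Ndufaf2 (-0.42) and mt-Nd3 (-0.37) stayed well below 0 on the log2 scale after this step, and Ndufb7 was at -0.19.

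**Figure D3:**
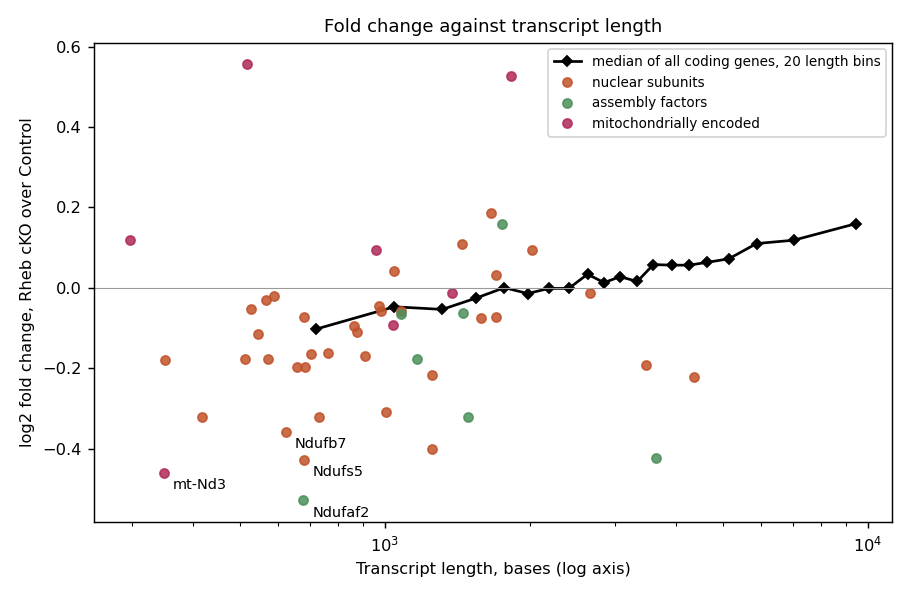
Log2 fold change (Rheb cKO over Control) against transcript length (bases, log axis) for complex I genes, with the median of all protein-coding genes in 20 length bins (black). The black line climbs from -0.10 to 0.16, and most short nuclear subunits lie at or below its left end.

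Ndufa4 and its paralog Ndufa4l2 differed in level by far more than between groups. Ndufa4 had 944.8 FPKM in Control and 933.8 in Rheb cKO (log2 -0.02, Cuffdiff q = 0.968 in the authors' deposited table), which placed it at rank 83 of all genes by mean FPKM, just above Ndufs5 at rank 88. Ndufa4l2, known as a hypoxia-induced gene, had 5.39 and 3.60 FPKM. Its log2 fold change of -0.58 was the lowest of all members, with a Cuffdiff q of 0.587 in the authors' deposited table, and the gene overlaps Shmt2 on the opposite strand.

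Of the 7 Ndufaf assembly factors 1 was called lower (14.3%, where 4.58% of all genes were) and none higher, and 6 had a fold below 0 (85.7%, where 45.4% of all genes did; median log2 -0.18). With so few genes, 1 call sets this share. Ndufaf2, a paralog of Ndufa12 that occupies its place during assembly, went from 56.5 FPKM in Control to 39.1 in Rheb cKO, 69.3% of Control (log2 -0.53, Cuffdiff q = 0.00406 in the authors' deposited table). In GENCODE M21 it lies on the minus strand at chr13:108002715-108158623 and overlaps Smim15 and B230220B15Rik, both on the other strand. The locus given for it by the authors, chr13:108052590-108158625, is narrower and is not the common locus of several genes. Because the strand setting of the counting is not given in the sources used here, reads of such partners cannot be told apart. Ndufaf1, a factor for the membrane arm, had 15.2 and 14.6 FPKM (log2 -0.06, Cuffdiff q = 0.895 in the authors' deposited table). Ndufaf3 and Ndufaf4 act together on the part that holds the ubiquinone site. Ndufaf3 had 78.9 and 63.1 FPKM (log2 -0.32, Cuffdiff q = 0.644 in the authors' deposited table) and overlaps Impdh2 on the opposite strand, and Ndufaf4 had 11.9 and 8.89 FPKM (log2 -0.42, Cuffdiff q = 0.362 in the same table). Ndufaf5, which in human cells hydroxylates Ndufs7, had 33.0 and 29.2 FPKM (log2 -0.18, Cuffdiff q = 0.520 in the authors' deposited table). Ndufaf6 had 8.68 and 8.30 FPKM (log2 -0.07, Cuffdiff q = 0.932 in the authors' deposited table). Ndufaf7, a methyltransferase that acts on complex I in human cells, was the exception above 0, with 12.03 and 13.43 FPKM (log2 0.16, Cuffdiff q = 0.581 in the authors' deposited table).

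Ndufaf8 is listed under its older symbol 1810043H04Rik, outside the naming rule, and was matched by gene ID after values were seen. In human cells it stabilises Ndufaf5. It went from 96.9 FPKM in Control to 65.8 in Rheb cKO (log2 -0.56, Cuffdiff q = 0.0388 in the authors' deposited table) and was called lower. With it, 2 of 8 Ndufaf genes were lower (25%, against the same 4.58%) and the median log2 fold change was -0.25. Of 12 assembly factors with other names, 11 were listed, and 8 had a fold below 0 (72.7%, where 45.4% of all genes did), with a median of -0.14. None was called by Cuffdiff, where 8.72% of all genes were. None had an unadjusted p under 0.05 either, where 9.72% of all genes were lower and 11.4% higher.

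The upstream sequences of the nuclear members called lower are shown so that their promoters can be compared. Each run is 80 bases that end just before the more upstream of the RefSeq and GENCODE M21 starts of the gene (sequence from RefSeq, build GRCm38.p6, strand of the gene). The GENCODE start lies 16 bases before the RefSeq start for Ndufs5 and 87 bases before it for Ndufb7. The runs are for Ndufs5 chr4:123718203-123718282 (minus), for Ndufb7 chr8:83566591-83566670 (plus) and for Ndufaf2 chr13:108158626-108158705 (minus).
Ndufs5: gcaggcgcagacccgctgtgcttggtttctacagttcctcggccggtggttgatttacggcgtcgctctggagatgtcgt
Ndufb7: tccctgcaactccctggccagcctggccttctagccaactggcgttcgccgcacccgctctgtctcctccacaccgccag
Ndufaf2: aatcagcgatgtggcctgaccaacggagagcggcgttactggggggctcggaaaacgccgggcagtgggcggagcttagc

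In 300 bases per gene (250 before to 50 after the RefSeq start), 4 motifs of factors known to act on respiratory chain genes were searched on both strands; 40 of the 46 nuclear genes, Ndufaf8 included, had a promoter in the table. The YY1 motif AAGATGGCG was in 6 of 40 (15%), against 1.64% of all 27025 genes with such a window. Those 27025 were not limited to coding genes or to the 13192 measured here. For each motif the members are thus set against an unlike set of genes. The NRF1 motif GCGCATGCG was in 4 (10%), against 1.95%, and since its letters are nearly the same on both strands, 3 of these genes matched on both. The ETS motif CCGGAAG was in 6 (15%), against 9.93%, and the ERR motif TCAAGGTCA in none, against 0.466%. Of the called genes, Ndufb7 held an ETS match 20 bases before its RefSeq start, which lies inside the longer GENCODE transcript, and Ndufaf8 held an ETS and a YY1 match. Ndufs5 and Ndufaf2 held none of the 4 motifs in this window. The Ndufb7 match is in capitals, at chr8:83566727-83566756.
Ndufb7 match: gcctagatgacCCGGAAGacactgaagggg

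All 6 YY1 matches lay 11 to 36 bases after the RefSeq start and on the strand of the gene, and their letters hold an ATG. They are shown because in 5 of the 6, all but Ndufaf8, this ATG is the annotated start codon; capitals mark the motif in 30 bases. The windows are chr6:126849101-126849130 (minus) for Ndufa9, chr11:120098929-120098958 (plus) for Ndufaf8, chr3:51408919-51408948 (minus) for Ndufc1, chr13:114388045-114388074 (minus) for Ndufs4, chr13:73328435-73328464 (minus) for Ndufs6 and chr10:80249458-80249487 (plus) for Ndufs7, RefSeq build GRCm38.p6.
Ndufa9: gaggcattgtgggagAAGATGGCGgccgcc
Ndufaf8: gaagaggcagggcccAAGATGGCGgcgccc
Ndufc1: cggagcctgcggaacAAGATGGCGccgtcc
Ndufs4: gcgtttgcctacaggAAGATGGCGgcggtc
Ndufs6: tcaagggtcaccggcAAGATGGCGgcggtg
Ndufs7: ctgaaggccgaggccAAGATGGCGgcgctg

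Counted over annotated start codons, in a tally added after these matches were seen, 8 of the 46 nuclear complex I genes (17.4%) had these letters around the ATG, among them Ndufa2 and Ndufa6. Of all genes of the table with a coding start, 2.56% did. None of the 8 was called, where 8.72% of all genes were, and their median log2 fold change in the authors' deposited table was -0.06. The 316 genes with these letters had a median of 0.07, and the 12034 without had 0.03. A match is a description of letters and shows no binding.

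The 7 mitochondrially encoded subunits lay on both sides of 0. Mitochondrial ribosomes translate these genes, so their RNA in an anti-HA pull-down need not have been bound to tagged ribosomes. How RNA of these and the other mitochondrial genes came into the pull-down was not tested, and their values may not be like those of the nuclear subunits. Of these, 1 was called lower and none higher, where 4.58% and 4.14% of all genes were. A fold below 0 was seen in 3 (42.9%), a share near the 45.4% of all genes, and the median log2 fold change was 0.09. mt-Nd3, a small core subunit next to the ubiquinone channel, went from 169.7 FPKM in Control, the highest of the 7, to 123.3 in Rheb cKO, 72.7% of Control (log2 -0.46, Cuffdiff q = 0.0170 in the authors' deposited table). It lies at chrM:9459-9806 on the plus strand and overlaps no other annotated gene. mt-Nd1, which forms much of the ubiquinone channel, had 130.3 and 139.1 FPKM (log2 0.09, Cuffdiff q = 0.749 in the authors' deposited table). The antiporter-like proton pump subunits differed among themselves. mt-Nd2 had 37.8 and 35.5 FPKM (log2 -0.09, Cuffdiff q = 0.776 in the authors' deposited table), and mt-Nd4 had 53.4 and 52.9 (log2 -0.01, Cuffdiff q = 0.975 in the same table). mt-Nd5, the lowest of the 7, had 6.71 and 9.66 FPKM (log2 0.53, Cuffdiff q = 0.0813 in the authors' deposited table). mt-Nd6, encoded on the opposite strand to all others, had 31.1 and 45.7 FPKM (log2 0.56, Cuffdiff q = 0.0660 in the authors' deposited table). mt-Nd4l had 13.9 and 15.1 FPKM (log2 0.12, Cuffdiff q = 0.971 in the authors' deposited table). mt-Nd5 and mt-Nd6 thus had the highest fold changes of the 52 genes but were not called.

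These genes overlap in the compact mitochondrial genome, which bears on how reads could be assigned. mt-Nd4l and mt-Nd4 share 7 bases on 1 strand, and mt-Nd5 and mt-Nd6 share 14 bases on opposite strands; each pair has 1 common locus in the authors' table. The ends concerned are shown with the shared bases in capitals, each 5′ to 3′ on its own strand (build mm10), at chrM:10144-10173, chrM:10167-10196, chrM:13536-13565 (plus) and chrM:13552-13581 (minus).
mt-Nd4l end: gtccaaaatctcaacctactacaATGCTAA
mt-Nd4 start: ATGCTAAaaattattcttccctcactaatg
mt-Nd5 end: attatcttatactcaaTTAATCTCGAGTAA
mt-Nd6 end: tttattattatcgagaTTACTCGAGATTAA

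The other 8 mitochondrial genes in the table all had a fold above 0, with a median log2 fold change of 0.34. Called higher were mt-Co1, the catalytic subunit of complex IV (317.6 to 572.7 FPKM, log2 0.85), and the ribosomal RNAs mt-Rnr2 (168.1 to 280.9, log2 0.74) and mt-Rnr1 (248.9 to 352.2, log2 0.50), each with a Cuffdiff q of 0.00161 in the authors' deposited table. mt-Nd3, which lies between mt-Co3 and mt-Nd4l among the listed genes, was the only mitochondrial gene of these 15 called lower. Mitochondrially encoded genes made up 0.396% of the summed FPKM in Control and 0.496% in Rheb cKO, so leaving them out of the total moved the nuclear folds by 0.00145 on the log2 scale.

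**Figure D4:**
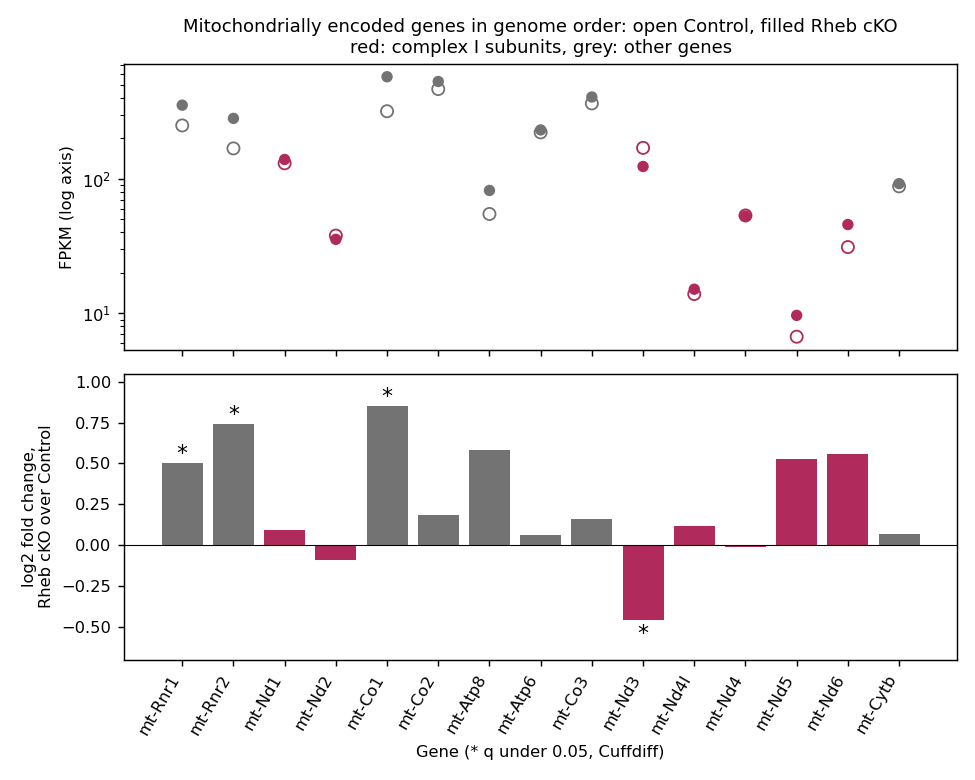
The 15 mitochondrially encoded genes in genome order: FPKM (log axis) in Control (open) and Rheb cKO (filled) above, and log2 fold change (Rheb cKO over Control) below, complex I subunits in red, with an asterisk for a Cuffdiff q under 0.05. mt-Nd3 is the called gene below 0, and mt-Rnr1, mt-Rnr2 and mt-Co1 are the called genes above it.

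Nuclear subunits of the other respiratory complexes were also mostly below 0. Of 34 nuclear subunits of complexes III to V, 6 were called lower (17.6%, where 4.58% of all genes and 6.69% of short coding transcripts were) and none higher. A fold below 0 was seen in 27 (79.4%, where 45.4% of all genes and 64.1% of short coding transcripts had one; median log2 -0.13, or -0.04 once the trend on length and GC was taken out). The called subunits were Cox5a and Cox6b1 of complex IV, Uqcr11 of complex III, and Atp5e, Atp5k and Atp5l of the ATP synthase. Cox5a, for example, went from 615.6 to 443.9 FPKM (log2 -0.47, Cuffdiff q = 0.00625 in the authors' deposited table). Of 14 genes of iron-sulfur cluster assembly, which supply the cofactors of the peripheral arm, 1 was lower (7.14%, near the 4.58% of all genes), none was higher and 10 had a fold below 0 (71.4%, where 45.4% of all genes did; median -0.10). That gene was Fdx1l, a mitochondrial ferredoxin, at 178.7 and 137.8 FPKM (log2 -0.38, Cuffdiff q = 0.0432 in the authors' deposited table). Of 21 regulators of mitochondrial gene expression and biogenesis, among them Tfam, Polrmt, Ppargc1a and Nrf1, none was called by Cuffdiff, where 8.72% of all genes were. None had an unadjusted p under 0.05 either, where 9.72% of all genes were lower and 11.4% higher. A fold above 0 was seen in 14 (66.7%, where 54.6% of all genes did), with a median of 0.06.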

How the data were processed

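RNA was measured in 6 libraries of mouse cortex, 3 Control and 3 Rheb cKO, grouped by their titles. Per the labels' protocols, RNA from an anti-HA immunoprecipitate was made into libraries with a stranded mRNA kit, which selects polyadenylated RNA. Mouse build mm10, TopHat2 2.1.0 and Cuffdiff 2.2.1 stand in the submitters' processing notes. How fragments were assigned by strand, with which annotation and scaling, is not given in the sources used here. The deposited FPKM, per the file headers, hold 1 value per gene and group, so the authors pooled the libraries and depth per library is unknown. The authors' deposited table also gives a log2 fold change with no pseudocount, the Cuffdiff statistic as a signed score, a p-value and a q-value; recomputing the log2 fold change from FPKM gave a difference of 1.23e-05 at most. The longer table has 13192 genes, all with status OK, and 1 empty line that was not used. The shorter table holds the 1150 called genes.

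No test across libraries can be run on pooled values, so calls are the authors' Cuffdiff q-values (Benjamini-Hochberg over the whole table) under 0.05, and lists are described by counts and medians beside the same over all genes. Coordinates, strand, transcript length and GC came from GENCODE M21, which held 99.7% of the gene IDs; length and GC are those of the transcript with the longest coding sequence. The trend of folds was removed as medians in 20 bins of length and of GC over 12364 protein-coding genes, a step tested on simulated data. Alternatives were other thresholds, a pseudocount of 1 FPKM, centring, a minimum mean FPKM of 1, rescaling without mitochondrial genes, and the length and GC trend. Members named with full values are the called ones, all mt-Nd and Ndufaf genes, the 5 nuclear members highest in mean FPKM, and the 3 highest and 3 lowest folds among nuclear members, 23 in all; neighbours of the threshold and examples of each role are named beside them. One member, counted in all totals, is not reported here by name or drawn. The members, gene lists and tests were chosen with earlier results of these data known. Further choices were made once the values here had been seen: the definition of transcript length, the log2 tolerance of 0.05 for calling a value moved, the match of Ndufaf8 and the start codon tally. Python 3.11.15, numpy 2.4.6, pandas 2.3.3 and matplotlib 3.10.9 were used.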

Additional observations from a re-analysis of the deposited data

How the results depend on the processing

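No paired analysis was possible because the deposited values are pooled over the libraries of each group; for the same reason leaving out single libraries and the replicate block were not run. Among the nuclear subunits, 2 were called lower, 1 at a q under 0.01, and 6 both at a q under 0.10 and at an unadjusted p under 0.05. Among the mitochondrially encoded subunits, 1 was called lower and 0 at a q under 0.01; 0 were called higher by Cuffdiff, and 2 both at a q under 0.10 and at an unadjusted p under 0.05. The count of assembly factors called lower was 1 under every threshold tried. The median log2 fold change of the nuclear subunits was -0.11 as deposited and -0.033 once the trend on length and GC was taken out. Defining length and GC by the longest coding transcript gave -0.030 and by the median of coding transcripts -0.050, both chosen after seeing the data. For the assembly factors the deposited -0.18 became -0.11 without the trend and -0.13 with the longest coding transcript, and for the mitochondrially encoded subunits 0.09 became 0.20 with the longest coding transcript. Pseudocount, centring, the FPKM minimum and rescaling without mitochondrial genes moved none of these medians by 0.05 or more, nor did inclusion of Ndufa4 and Ndufa4l2, run for the nuclear subunits only. Of the 23 named members, the length and GC step moved 15 by at least that much and changed the sign of 4 uncalled ones (Ndufa4, Ndufa5, Ndufb8 and mt-Nd4); the pseudocount moved 2 (Ndufa4l2 and mt-Nd5), and centring none. These trends were fitted over all protein-coding genes, so what they remove is not known to be technical, which was not tested. Without values per library, the precision of each level is unknown, and differences as small as the subunit median cannot be set against a spread between libraries.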
